A study of Mus musculus with 12 samples.

Results

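Of the 12 arrays in the series, the 9 described here carry cells named adult mammary, reprogrammed mammary or reprogrammed lung, and were split by how strongly they carried B cell transcripts. The 4 B-cell-rich arrays are adult mammary replicate 4, reprogrammed lung replicate 1 and reprogrammed mammary replicates 1 and 2. The 5 B-cell-poor arrays are adult mammary replicates 1 and 2, reprogrammed lung replicates 3 and 4, and reprogrammed mammary replicate 3. Each of the 3 groups therefore has arrays on both sides, and rich was compared with poor within each group. The 2 sides of the split were chosen by the measured levels of B cell genes, with Cd79b as the marker. Every rich minus poor value below is therefore a description, given with a standard error that shows the spread and with no p-value.

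The study asked whether stroma can redirect adult cells to another organ's lineage in the mouse. Adult cells came from lungs and mammary glands of female mice 10 weeks old, whose organs were digested with trypsin and collagenase. Epithelium was enriched by repeated washing and spinning, and no cell sort is stated. Donor cells were mixed with Matrigel for transplantation, and total RNA was amplified, labelled with Cy3 and hybridised to single-colour Agilent mouse arrays. For the reprogrammed groups, the labels do not say whether lung or mammary names the donor cells or the tissue formed, nor what the host was. Whether replicate arrays stand for different animals is not stated either, so spreads are those between arrays and may be technical. All samples are labelled as epithelial cells.

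B cells carry a membrane antibody whose signalling chains are Cd79a and Cd79b, and present antigen to T cells on MHC class II. In lymph nodes, B and T cells gather around stromal cells that make chemokines such as Ccl19 and around high endothelial venules, the vessels through which lymphocytes enter. In the mouse, an inguinal lymph node lies within the mammary fat pad. The labels do not say whether nodes were removed, and its part in these results was not tested. In bulk RNA, fewer cells of a type and less RNA per cell cannot be told apart.

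Levels are log2 of the background-subtracted intensity relative to the array's 75th percentile, so 0 is that percentile and a difference of 1 is a factor of 2. The rich minus poor difference of a gene is the mean of its differences within the 3 groups, fitted with limma and given with its standard error. A gene was counted as higher where it was at least 2-fold up and, in each group, every rich array lay above every poor array. The count of lower genes mirrors this. Of 24960 features tested, 1682 (6.74%) were counted higher and 99 (0.397%) lower in the rich arrays, and the median difference over all of them was 0.13. The counts of each gene list below are to be read beside these shares.

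Adult mammary 4 and reprogrammed lung 1 stood apart from the other arrays in signal range. On them 89.1% and 91.1% of probes were above background, against 71.7% to 77.5% on the other 10. Between its low and high deciles the signal spanned 7.11 and 6.10 log2 units on these arrays, against 8.46 to 9.13 elsewhere. The rich arrays reprogrammed mammary 1 and 2, at 74.0% and 76.6%, lay among the poor ones. The narrow range thus went with 2 of the 4 rich arrays, and its part in the differences was not tested. Counts are therefore also given within reprogrammed mammary alone, where 976 (3.91%) of 24976 features were higher and 281 (1.13%) lower. The only poor array there is reprogrammed mammary 3. A gene counted over all groups already parts without overlap in this group, so its count there adds only the 2-fold size. These counts are thus a description and not an independent check. The split of the counts also moved with the scaling. Background correction by normexp gave 573 (2.3%) higher and 53 (0.212%) lower, quantile normalization gave 867 (3.47%) and 740 (2.96%), and the authors' deposited values gave 567 (2.27%) and 101 (0.404%). The share of higher among counted features was 94.4% with the 75th percentile, 91.5% with normexp, 54% with quantile normalization and 84.9% in the authors' values. On all 4 sets of values, 510 features (2.04%) were counted higher and 35 (0.14%) lower. Quantile normalization and the authors' values moved the median difference of all features to -0.06 and -0.04.

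**Figure D1:**
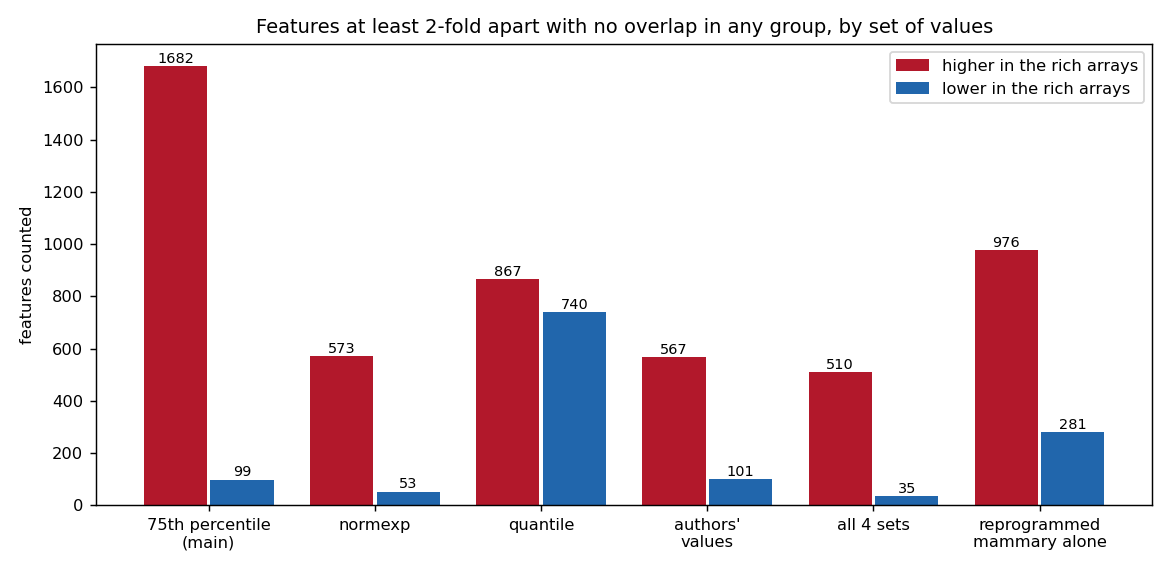
Number of features counted higher (red) or lower (blue) in the B-cell-rich arrays, on the vertical axis, for each set of values and within reprogrammed mammary alone. Higher outnumbers lower in each set, by 1682 to 99 with the 75th percentile and by 867 to 740 after quantile normalization.

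The epithelial label was checked against its markers. Epcam, an epithelial adhesion molecule, stood at 4.33 to 4.91 on 8 of the 9 arrays and at 1.58 on reprogrammed lung 1. Krt8 and Krt18, the keratins of simple epithelia, stood at 5.54 to 6.61 and 5.57 to 6.25 on those 8 arrays and at 3.56 and 3.66 on reprogrammed lung 1. Transcripts of these genes were thus present on all 9 arrays and lowest on the array with the most B cell signal. Their rich minus poor differences were -1.13 (Epcam), -0.86 (Krt8) and -0.83 (Krt18). Cdh1, a further epithelial marker, differed by -0.07 (-0.40 after quantile normalization).

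Promoter sequences of B cell and MHC class II genes that were higher in the rich arrays are shown first, as letters that can be read beside the values. They were chosen after the values were seen, for a motif found from 250 bases before to 50 bases after a RefSeq start site (build GRCm38.p6). The octamer ATGCAAAT is the site of Oct factors such as Oct-2, the EBF palindrome is the core site of early B cell factors, and GAGGAAGT is a PU.1 form of the Ets site. CTGATTGG is the Y box of MHC class II promoters, which also contains a CCAAT element on its other strand. Each motif was searched on both strands. The 150 bases before the start site are printed on the gene's own strand with the motif in capitals. Cd22 (chr7:30879029-30879178 on the minus strand) has the EBF letters from base 49 before the start. Blnk (chr19:40994222-40994371 on the minus strand) has the octamer, reversed, from base 130 before it. Fcrl1 (chr3:87376237-87376386 on the plus strand) and Cd72 (chr4:43454627-43454776 on the minus strand) have the PU.1 letters, reversed, from bases 15 and 49 before it. H2-Aa (chr17:34287824-34287973 on the minus strand) and H2-Oa (chr17:34092229-34092378 on the plus strand) have the Y box from bases 51 and 46 before it.
Cd22: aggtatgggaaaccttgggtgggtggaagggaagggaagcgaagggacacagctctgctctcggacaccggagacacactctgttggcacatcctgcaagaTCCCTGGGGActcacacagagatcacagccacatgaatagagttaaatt
Blnk: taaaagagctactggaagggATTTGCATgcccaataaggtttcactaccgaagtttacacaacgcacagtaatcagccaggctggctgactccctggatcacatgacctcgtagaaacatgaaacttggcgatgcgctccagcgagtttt
Fcrl1: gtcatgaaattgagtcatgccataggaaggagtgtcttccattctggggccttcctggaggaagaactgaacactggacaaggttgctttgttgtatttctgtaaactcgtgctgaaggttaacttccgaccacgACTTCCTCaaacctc
Cd72: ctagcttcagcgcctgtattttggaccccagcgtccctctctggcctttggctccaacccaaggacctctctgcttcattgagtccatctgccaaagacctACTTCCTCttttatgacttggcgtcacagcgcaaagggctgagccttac
H2-Aa: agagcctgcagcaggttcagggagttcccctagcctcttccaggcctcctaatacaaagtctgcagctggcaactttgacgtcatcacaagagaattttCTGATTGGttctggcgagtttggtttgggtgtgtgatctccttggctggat
H2-Oa: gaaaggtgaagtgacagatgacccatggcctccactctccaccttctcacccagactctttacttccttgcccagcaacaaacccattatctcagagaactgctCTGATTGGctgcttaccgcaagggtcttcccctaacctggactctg
In the B cell list, 18 of 28 genes had promoters in the table. Of their 22 promoters 2 held the octamer (9.09%, against 1.74% of all 32851 promoters), 1 the EBF letters (4.55%, against 0.904%) and 3 the PU.1 letters (13.6%, against 3.2%). The octamer promoters were those of Blnk and Vpreb3, and Vpreb3 was not counted higher in the rich arrays. Of 17 pan-epithelial promoters, 1 held the octamer and 1 the EBF letters (5.88% each), and 0 the PU.1 letters. The Y box stood in 3 of 8 MHC class II promoters (37.5%, against 4.1%), those of H2-Aa, H2-Oa and H2-Eb1. H2-Eb1 was not among the genes tested on the arrays. These are matches of letters, which do not show that a factor binds.

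Genes of the B cell list set the split. Of 28 listed genes 25 had a probe and 24 passed the filter on dim probes (above background on at least 4 of the 9 arrays). Of these, 21 were counted higher and none lower, with a median difference of 4.36. A gene can pass this filter through the rich arrays alone, and of the 3595 features not above background on all 9 arrays 21.7% were counted higher, against 4.22% of the 21365 that were. Of the 14 B cell genes above background on all 9 arrays, 12 were counted, with a median difference of 3.10. The same 21 were counted on all 4 sets of values, and 21 were counted within reprogrammed mammary alone. The list's median level was 0.09 on adult mammary 4, 2.71 on reprogrammed lung 1, -0.98 on reprogrammed mammary 1 and 0.57 on reprogrammed mammary 2. On the poor arrays it lay between -4.15 (adult mammary 2) and -3.41 (reprogrammed lung 4). The 3 adult lung arrays, outside the split, lay in the gap between, at -2.26 to -1.88. The array just inside the split was reprogrammed mammary 1 and the array just outside it reprogrammed lung 4.

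Cd79b, a signalling chain of the B cell receptor and the marker of the split, stood at 0.92 on adult mammary 4, 5.11 on reprogrammed lung 1, -0.05 on reprogrammed mammary 1 and 1.52 on reprogrammed mammary 2. On the poor arrays it was -2.21 and -1.59 in adult mammary, -2.44 and -1.93 in reprogrammed lung, and -1.47 in reprogrammed mammary. The groups of arrays did not overlap, and the difference was 4.11 ± 0.88 (SE). Its partner Cd79a stood at 0.70, 3.44, 0.09 and 1.14 on the rich arrays in the same order, against -3.01 to -1.79 on the poor ones (4.06 ± 0.47). For both genes reprogrammed lung 1 was the highest array.

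Several genes of mature B cells in the list were dim on most or all poor arrays, so that the size of their differences depends on how dim signal is handled. Ms4a1, which encodes CD20, was not above background on any poor array and stood at -1.85, 2.48, -1.99 and -0.09 on the rich ones, which makes it at least 32.3-fold higher there. In such bounds, dim spots were raised to the lowest level marked above background on their array. Fcrl1 and Fcrla, members of the Fc receptor-like family, were dim on all 5 poor arrays too and at least 24.6-fold and 12-fold higher on the rich ones. The log2 differences of Ms4a1, Fcrl1 and Fcrla were 3.16, 2.76 and 2.08 with normexp, below those bounds. In the authors' values they were 3.91, 3.43 and 2.71, also below them. Fcmr, the receptor for IgM, was above background on 1 of 5 poor arrays and differed by 7.23 ± 0.59 (4.57 with normexp, 5.25 in the authors' values). Bank1, an adaptor of B cell receptor signalling, was above background on 2 of 5 and differed by 6.92 ± 0.36 (3.80 and 4.51). Cr2, which encodes the complement receptor CD21, stood at 0.53, 3.18, -1.38 and 0.48 on the rich arrays, against -6.97 to -4.51 on the poor ones, of which 1 was above background (6.77 ± 0.71, with 3.90 by normexp and 4.63 in the authors' values). Second probes of Bank1 and Cr2 gave smaller differences, of 5.21 and 4.87. With the 3 genes dim on all poor arrays set at their bounds, the list's median difference was 4.08.

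Other receptors of the list were also highest on reprogrammed lung 1, followed by reprogrammed mammary 2. Cxcr5, the receptor that guides B cells to follicles, was above background on 1 of 5 poor arrays and differed by 5.78 ± 0.65 (2.78 with normexp, 3.52 in the authors' values). Tnfrsf13c, the receptor for the survival factor BAFF, differed by 4.88 ± 0.87, and Fcer2a, the low-affinity IgE receptor CD23, by 4.62 ± 0.50. Among regulators, Pou2af1, a coactivator of Oct factors in B cells, differed by 5.10 ± 0.79 and Pax5, the factor that fixes B cell identity, by 2.64 ± 0.46. Cd22, an inhibitory lectin, differed by 6.24 with its brighter probe and by 2.50 with the other. Blnk, the adaptor whose promoter is printed above, differed by 2.57 ± 0.67. Cd72, an inhibitory co-receptor, differed by 2.17 ± 0.51.

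Spib, Ly6d and Vpreb3 were the 3 tested members not counted. Spib, an Ets factor, differed by 2.79 ± 0.78, but its level on poor reprogrammed mammary 3 (-3.02) lay above that on rich reprogrammed mammary 1 (-3.54). Ly6d, which epithelial cells also make, differed by 0.73 ± 0.76. Vpreb3, a chaperone of B cell precursors, differed by 0.46 ± 0.23 with the brighter probe and by 3.18 with the other, so its 2 probes disagree. The immunoglobulin constant-region genes Ighm, Ighd and Igkc had no probe matched by accession and were not analysed here.

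**Figure D2:**
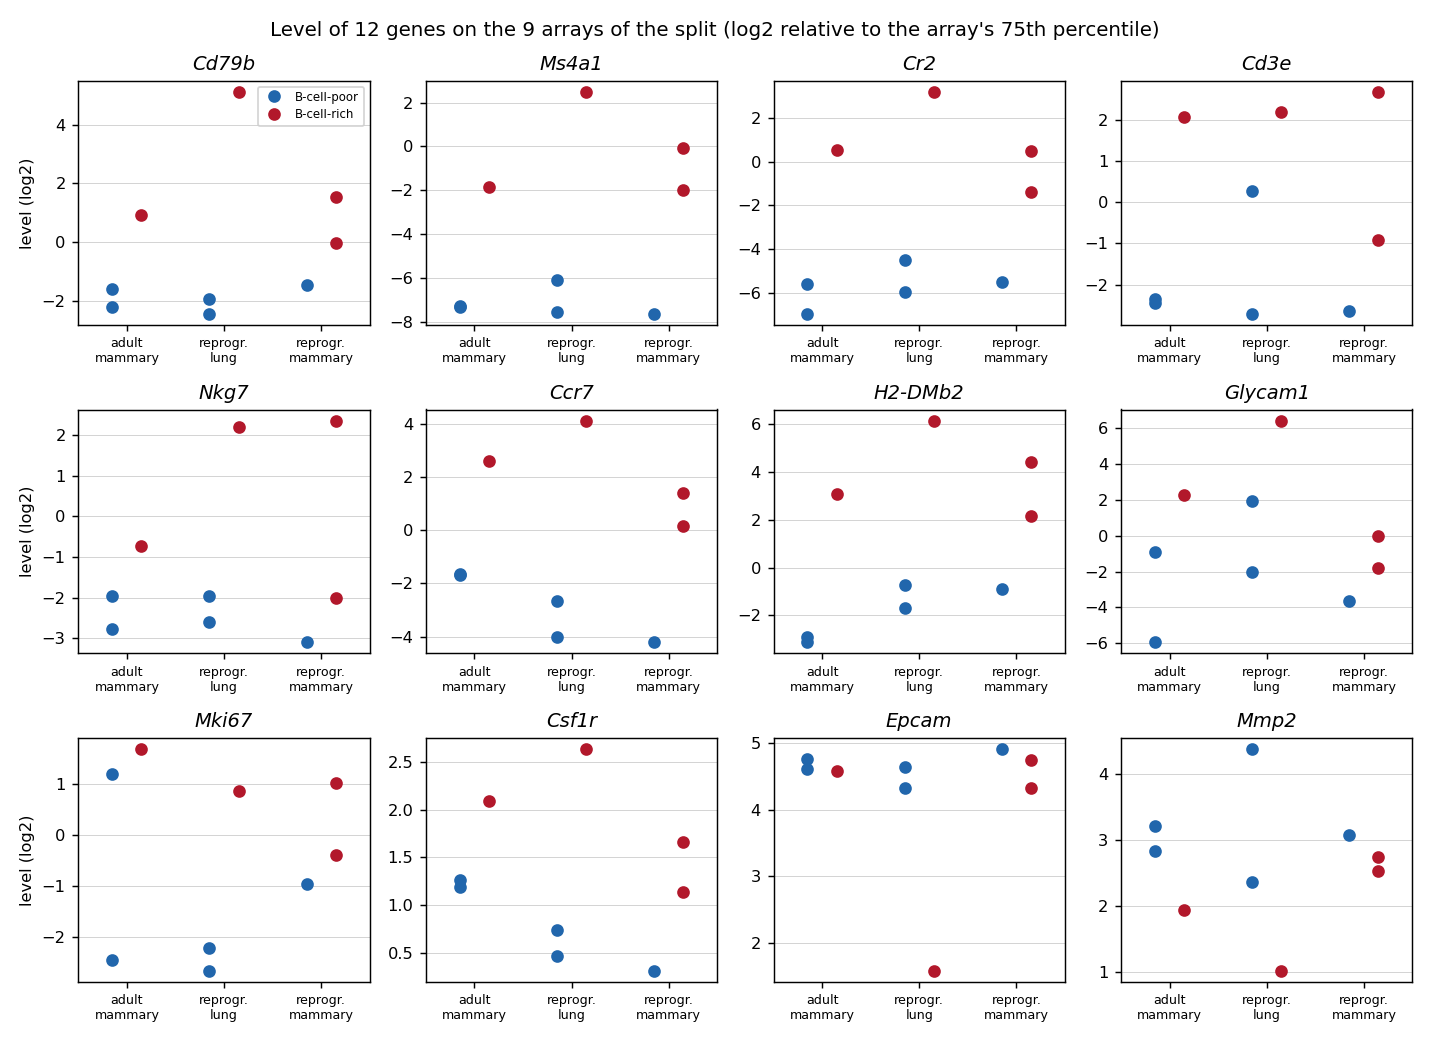
Level of 12 genes (log2 relative to the array's 75th percentile, vertical axis) on each array of the 3 groups (horizontal axis), with B-cell-poor arrays in blue and B-cell-rich arrays in red. Cd79b, Ms4a1 and Cr2 separate the colours in each group, whereas Epcam sets apart reprogrammed lung 1 at 1.58.

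Genes that act downstream of the B cell receptor went with the split in part. Of 19 tested, 8 were counted higher (7 on all 4 sets of values, 5 within reprogrammed mammary alone) and none lower, with a median difference of 1.73. Fcgr2b, the inhibitory Fc receptor of B cells, stood at -0.47, 1.29, -1.91 and -0.22 on the rich arrays, against -4.27 to -2.56 on the poor ones (3.50 ± 0.54). Syk, the kinase next to the receptor, differed by 2.67 ± 0.52, and Inpp5d, a lipid phosphatase that restrains the signal, by 2.40 ± 0.56. Pik3cd, the leukocyte form of the PI3-kinase catalytic subunit, differed by 3.54 ± 0.83 and was counted on 3 of the 4 sets of values. Prkcb (1.85), Dok3 (1.80) and Pik3ap1 were among the others counted. Some members differed less and were not counted. Lyn differed by 0.48 ± 0.28, Plcg2 by 0.48 ± 0.24 and Grb2 by 0.69 ± 0.33.

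Among lymphoid transcription factors, 7 of 19 were counted higher (6 on all 4 sets of values, 5 within reprogrammed mammary alone) and the median difference was 1.02. Ikzf1, the founding Ikaros factor of lymphocytes, stood at 0.89, 1.95, -1.43 and 0.43 on the rich arrays, against -2.62 to -1.60 on the poor ones (2.91 ± 0.57). Pou2f2, which encodes Oct-2, differed by 2.64 ± 0.57 (1.04 with normexp, above background on 1 of 5 poor arrays), and Spi1, which encodes PU.1, by 1.49 ± 0.36. Factors of T cells were counted too, with Satb1 at 2.71 ± 0.49 and Tcf7 at 2.14 ± 0.41. Ebf1 and Foxo1, which B cells need but which stromal, fat or epithelial cells also make, differed by -0.12 ± 0.28 and 0.00 ± 0.16. Their levels were -0.78 to 0.73 and 2.94 to 3.56 over the 9 arrays.

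Plasma cell and germinal centre genes were counted in part. Of 7 plasma cell genes, Mzb1, a chaperone of antibody assembly, and Tnfrsf13b, a receptor for BAFF and APRIL, were counted higher, both at 2.11 and both on all 4 sets of values. Jchain, the joining chain of secreted IgM and IgA, stood at -3.28 on adult mammary 4 and 0.22 on reprogrammed lung 1, against -5.58 to -4.05 on the poor arrays. In reprogrammed mammary its rich arrays (-5.32 and -4.46) lay on either side of the poor one (-4.74). Of 5 germinal centre genes, Mybl1 (1.04 ± 0.46) was counted, and on the other 3 sets of values none was. Over all features 6.74% were counted higher, so 1 gene of so short a list was not read as a result about it. Rgs13, a regulator of G protein signals in germinal centre B cells, differed by 2.49 in adult mammary, 4.65 in reprogrammed lung and 0.09 in reprogrammed mammary.

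T cell genes were higher in the rich arrays, with 15 of 20 counted, none lower and a median difference of 2.41. Of these, 12 were counted on all 4 sets of values, and 14 within reprogrammed mammary alone. Of the 15 T cell genes above background on all 9 arrays, 10 were counted, with a median difference of 2.22. The median difference within adult mammary (2.90) and reprogrammed lung (2.88) was about equal, whereas B cell genes differed by 3.30 and 6.23 in the same groups. Within reprogrammed mammary it was 1.40. Cd3e, a chain of the T cell receptor complex, stood at 2.07 on adult mammary 4, 2.18 on reprogrammed lung 1, -0.93 on reprogrammed mammary 1 and 2.67 on reprogrammed mammary 2. Its poor arrays were at -2.71 to -2.35 except for reprogrammed lung 4 at 0.28, so that the full ranges overlapped although each group's did not (3.79 ± 0.87). Cd3d and Cd3g, further chains of the complex, differed by 4.85 ± 0.76 and 3.93 ± 0.80. Cd2, an adhesion receptor of T and NK cells, differed by 5.63 ± 0.70, and the co-stimulatory receptor Icos by 4.70 ± 0.92.

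Markers of T cell subsets were less clear. Cd4, the co-receptor of helper T cells, stood at -0.48 to 0.10 on 3 rich arrays and -1.34 on reprogrammed mammary 1, against -1.76 to -1.47 on the poor arrays (1.09 ± 0.30). It was counted on 1 of the 4 sets of values. Probes of Cd8a disagreed, with 0.83 for the brightest and 2.76 and 3.64 for the others. Probes of Cd247, which encodes a T cell receptor signalling chain, disagreed likewise, at 0.55, 3.07 and 2.68. Foxp3, the factor of regulatory T cells, differed by 0.63 ± 0.33. Thy1, which fibroblasts also make, differed by -0.08 ± 0.51.

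B and T cell signal did not go in step across the rich arrays. The B cell list's level minus the T cell list's level was 2.69 on reprogrammed lung 1, 1.04 on reprogrammed mammary 1, 0.68 on reprogrammed mammary 2 and -0.16 on adult mammary 4. Different probes set the zero of this scale, so that its differences between arrays can be read and its sign cannot. Adult mammary 4 thus had the lowest B to T ratio of the rich arrays and reprogrammed lung 1 the highest. The poor arrays lay between -0.80 and -0.26 and the adult lung arrays between -1.16 and -0.99. Reprogrammed mammary 1 had the lowest T cell level of the rich arrays, -2.02 against -0.11 to 0.25.

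**Figure D3:**
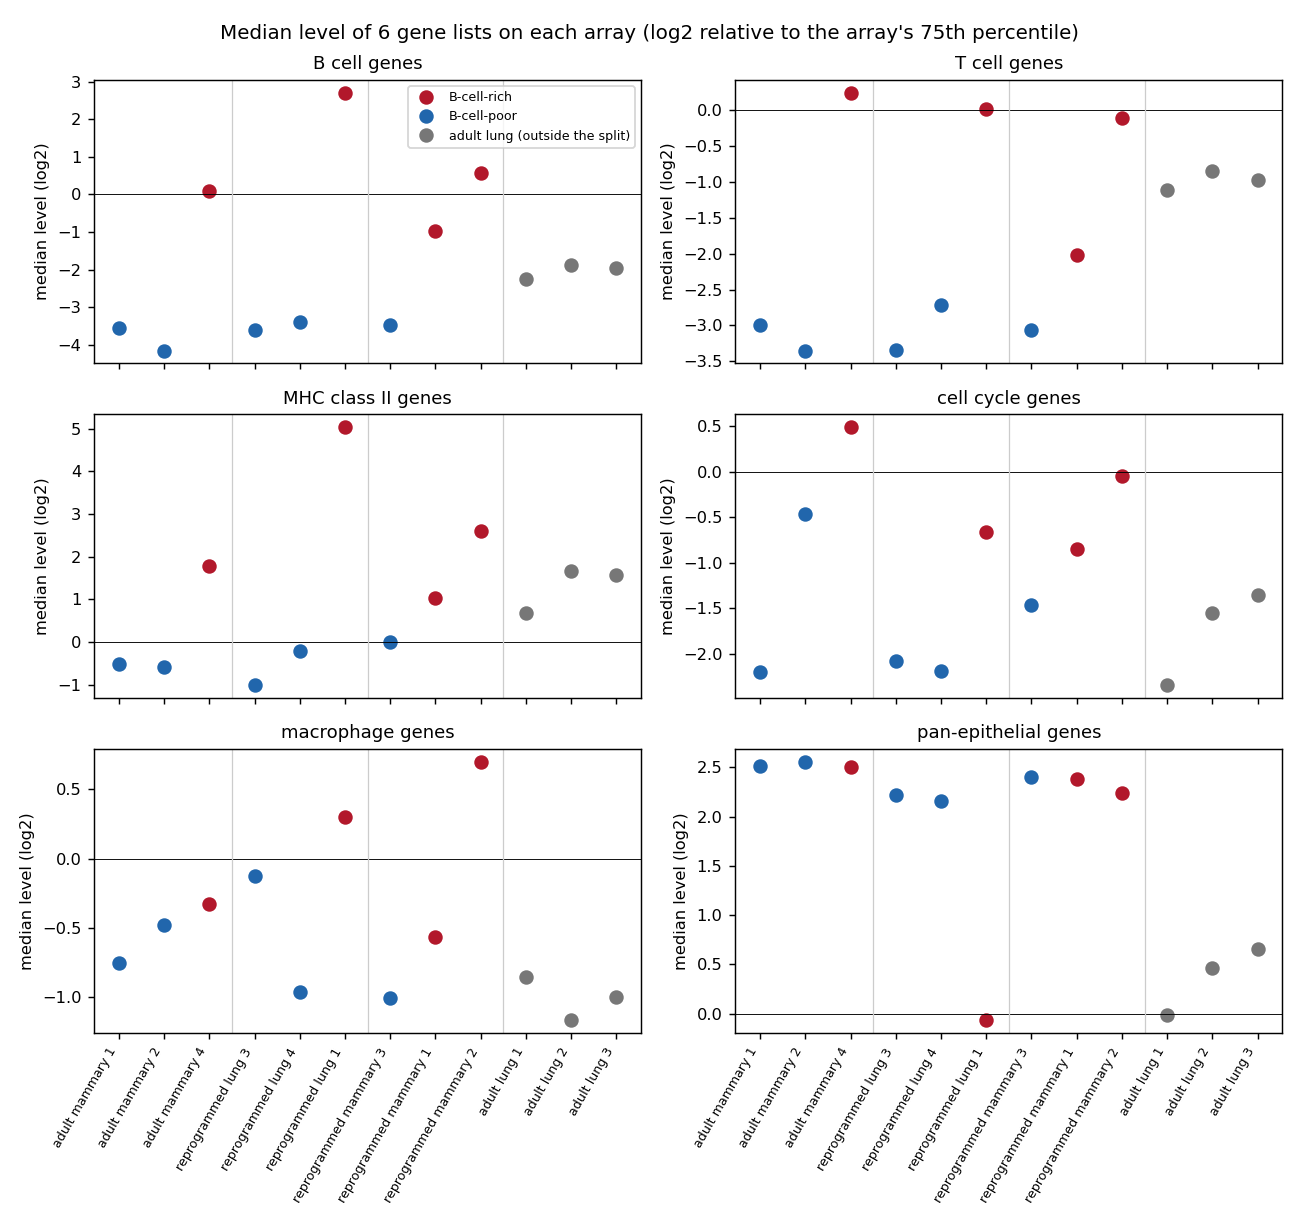
Median level of 6 gene lists on each of the 12 arrays (log2 relative to the array's 75th percentile, vertical axis), with B-cell-poor arrays in blue, B-cell-rich arrays in red and adult lung in grey. B cell and MHC class II genes part the colours across all groups, T cell genes run from -2.02 to 0.25 on the rich arrays, and the pan-epithelial level is lowest, at -0.06, on reprogrammed lung 1.

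NK and cytotoxic genes were counted higher in 7 of 10 cases (6 on all 4 sets of values, 6 within reprogrammed mammary alone), with a median difference of 2.23. All 6 members above background on all 9 arrays were counted. Nkg7, a protein of cytotoxic granules, stood at -0.74 on adult mammary 4, 2.20 on reprogrammed lung 1, -2.00 on reprogrammed mammary 1 and 2.35 on reprogrammed mammary 2, against -3.10 to -1.95 on the poor arrays (3.13 ± 0.91). Here reprogrammed mammary 1 lay within the range of the poor arrays. The chemokine Ccl5 stood at 2.11, 5.21, -0.04 and 3.54 against -0.59 to 0.33 (3.26 ± 0.90). Klrd1, which encodes the NK receptor chain CD94, differed by 3.35 ± 0.84 (1.67 with normexp), and Il2rb, a chain of the IL-2 and IL-15 receptors, by 2.28 ± 0.67. Prf1, which encodes perforin, differed by 2.19 ± 0.39.

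Genes shared by all leukocytes were counted higher in 10 of 22 cases, with none lower and a median difference of 1.98. All 10 were counted on all 4 sets of values, and 7 list members within reprogrammed mammary alone. Ptprc, which encodes the leukocyte surface phosphatase CD45, stood at 1.41, 2.61, -1.21 and 1.02 on the rich arrays, against -3.26 to -1.49 on the poor ones (3.67 ± 0.73). Cd52, a small glycoprotein abundant on lymphocytes, differed by 3.91 ± 0.82. Sla, an adaptor that dampens antigen receptor signals, differed by 2.72 ± 0.47, and the adhesion ligand Cd48 by 2.68 ± 0.58. Coro1a, Cd53, Laptm5 and Rac2 differed by 3.44, 3.08, 2.86 and 2.80, but each was at least as high on poor reprogrammed mammary 3 as on rich reprogrammed mammary 1. Reprogrammed mammary 3 was the highest of the poor arrays in these genes, at a list level of -0.28 against -1.11 to -0.68 on the others, and lay next to rich reprogrammed mammary 1 at -0.31.

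Receptors and ligands that place lymphocytes in tissue were counted higher in 7 of 12 cases (6 on all 4 sets of values, 6 within reprogrammed mammary alone), with a median difference of 2.70. Of the 9 members above background on all 9 arrays, 5 were counted, with a median difference of 1.96. Ccr7, the receptor that draws lymphocytes into lymph nodes, stood at 2.59 on adult mammary 4, 4.12 on reprogrammed lung 1, 0.17 on reprogrammed mammary 1 and 1.40 on reprogrammed mammary 2, against -4.21 to -1.63 on the poor arrays (5.56 ± 0.60). Gpr183, an oxysterol receptor that positions B cells, differed by 3.71 ± 0.62, and the chemokine receptor Ccr6 by 3.34 ± 0.53. Ltb and Lta, the lymphotoxin chains by which lymphocytes maintain lymph node structure, differed by 3.67 ± 0.64 and 2.67 ± 0.62. Ccr9 stood at 0.36 on poor reprogrammed mammary 3, above the -3.80 to -1.20 of the other 8 arrays. S1pr1, which vessels also make, differed by -0.19 ± 0.31.

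Genes of lymph node stroma and high endothelial venules went with the split in part. Of 12 tested, 4 were counted higher and none lower, with a median difference of 1.80, and 3 were counted within reprogrammed mammary alone. On all 4 sets of values Glycam1, Ccl19 and Chst4 were counted. Of the 9 members above background on all 9 arrays, 3 were counted. Glycam1, a mucin of these venules that milk-producing cells also make, stood at 2.27, 6.42, -1.78 and -0.04 on the rich arrays. Its poor arrays ran from -5.94 to 1.92, so the full ranges overlapped (4.95 ± 1.33). Ccl19, a ligand of Ccr7, stood at 0.99, 3.86, 1.26 and 3.18, against -0.99 to 1.35 (2.04 ± 0.47). Chst4, a sulphotransferase of these venules, stood at 1.91 on reprogrammed lung 1 and at -1.69 to -0.95 on the other rich arrays, against -2.65 to -1.61 (1.69 ± 0.59). Cxcl13, the ligand of Cxcr5, differed by 2.74 ± 0.95 and Ccl21a, the other ligand of Ccr7, by 1.38 ± 0.91. Neither was counted. Madcam1, the addressin of mucosal venules, differed by 0.72 ± 0.34. None of 6 lymphatic endothelial and none of 16 blood endothelial genes was counted, and their median differences were -0.20 and -0.18.

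All 9 MHC class II genes tested, of 10 listed, were counted higher, on all 4 sets of values and within reprogrammed mammary alone, with a median difference of 2.94. One of them, H2-Ab1 (2.60 ± 0.47), lacked a value on reprogrammed mammary 2. H2-DMb2, a chain of the class II peptide loader H2-DM, stood at 3.06 on adult mammary 4, 6.15 on reprogrammed lung 1, 2.14 on reprogrammed mammary 1 and 4.42 on reprogrammed mammary 2. Its poor arrays stood at -3.12 to -0.72, without overlap (5.87 ± 0.66). H2-Ob and H2-Oa, whose product restrains that loader in B cells, differed by 5.28 ± 0.73 and 3.26 ± 0.67. H2-Ob was above background on 2 of 5 poor arrays (3.57 with normexp), and a second probe of H2-Oa gave 1.96. Cd74, the invariant chain, stood at 4.05, 6.40, 3.16 and 5.27, against 1.16 to 2.55 (3.01 ± 0.66). H2-Aa, a chain of the presenting molecule itself, differed by 2.83 ± 0.35, and Ciita, the master regulator of the class, by 2.88 ± 0.57. None of 9 class I presentation genes was counted, with a median difference of 0.29. B2m, the class I light chain, differed by 0.45 ± 0.32.

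Myeloid genes were counted in part. Of 17 macrophage genes, 5 were counted higher and none lower, with a median difference of 0.72, and 6 were counted higher and 1 lower within reprogrammed mammary alone. Csf1r, the growth factor receptor of macrophages, stood at 2.09, 2.64, 1.14 and 1.66 on the rich arrays, against 0.31 to 1.27 on the poor ones (1.33 ± 0.25). Lyz2, the myeloid lysozyme, differed by 2.18 ± 0.35, and Aif1 by 2.13 ± 0.64. These 3 were counted on all 4 sets of values. Adgre1, a surface marker of macrophages, differed by 0.72 ± 0.30, the complement gene C1qb by 0.67 ± 0.46 and Cd14 by -0.87 ± 0.57, and none of these was counted. Of 7 dendritic cell genes, Flt3 (1.20 ± 0.44) was counted, against 6.74% of all features, and on the other 3 sets of values none was.

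Neutrophil genes had a high median difference of 2.30 that came from adult mammary (1.87) and reprogrammed lung (5.21), whereas within reprogrammed mammary the median was -0.10. The rich arrays of adult mammary and reprogrammed lung are those with the narrow signal range, whose part was not tested. Of the 3 members above background on all 9 arrays none was counted, with a median difference of 1.30. S100a8, an abundant calcium-binding protein of neutrophils, stood at 0.77 on reprogrammed lung 1 and at -4.65 to -4.25 on the other rich arrays, against -6.96 to -3.82 on the poor ones. Retnlg, a resistin-like gene of neutrophils, stood at 2.75 on reprogrammed lung 1, whereas in reprogrammed mammary the poor array (-1.79) lay above both rich ones (-4.17 and -3.84). S100a8 was the 1 member of 7 counted, against 6.74% of all features, and on all 4 sets of values none was. The difference between the groups was not tested.

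**Figure D4:**
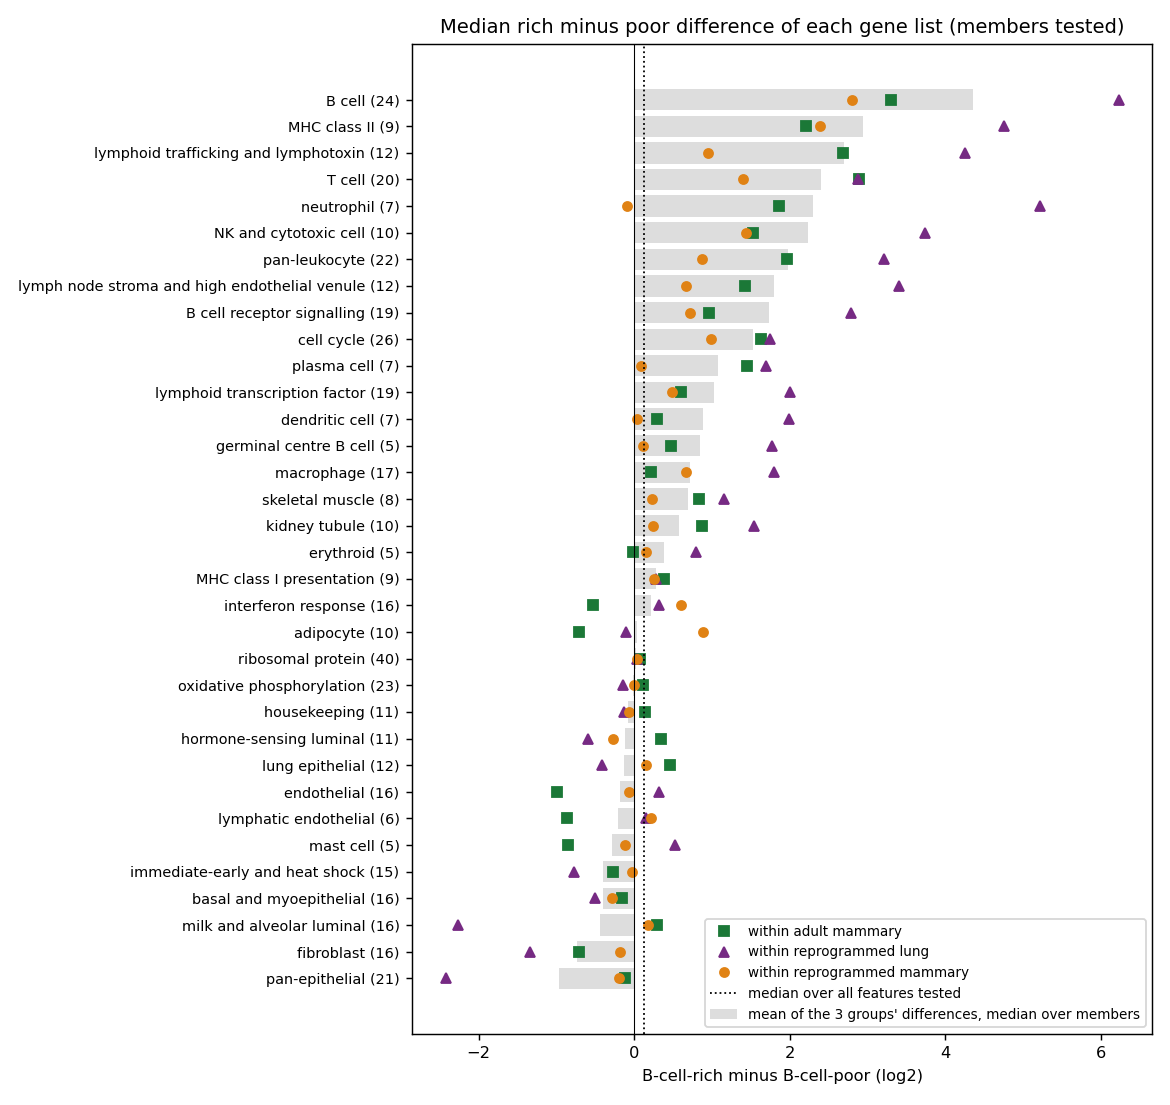
Median rich minus poor difference (log2, horizontal axis) of each gene list, as grey bars for the mean over the 3 groups and as symbols within adult mammary, reprogrammed lung and reprogrammed mammary, with the number of members tested in brackets. The dotted line is the median of all features, 0.13; B cell genes lie at 4.36 and pan-epithelial genes at -0.96, the latter far lower within reprogrammed lung (-2.42) than in the other groups (-0.12 and -0.20).

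Cell cycle genes had the highest median difference outside the immune and lymph node lists. Of 26 tested, 18 were counted higher and none lower, with a median difference of 1.53. On all 4 sets of values 13 were counted, and 12 within reprogrammed mammary alone. Of the 19 cell cycle genes above background on all 9 arrays, 12 were counted, with a median difference of 1.26. Mki67, a protein of proliferating nuclei, stood at 1.68 on adult mammary 4, 0.86 on reprogrammed lung 1, -0.40 on reprogrammed mammary 1 and 1.01 on reprogrammed mammary 2. The poor arrays stood at -2.67 to -0.97 except adult mammary 2, which at 1.19 was the second highest of all 9 (2.30 ± 0.78). Kif11, a spindle motor, differed by 2.62 ± 0.88, and Top2a, the topoisomerase of dividing cells, by 2.06 ± 0.71. The replication helicase genes Mcm2, Mcm5 and Mcm6 differed by 1.26, 1.32 and 1.20, whereas Mcm7 differed by 0.43 ± 0.37 and Pcna by 0.10 ± 0.28. The list's level on adult mammary 2 was -0.46, above those of the rich arrays reprogrammed lung 1 (-0.66) and reprogrammed mammary 1 (-0.85), while its B cell level was the lowest of all arrays. The median difference was 1.02 with normexp, 1.04 in the authors' values and 0.98 within reprogrammed mammary. Of 24 promoters of the list 4 held the Y box letters (16.7%) and 10 the letters TTTGAA of the cell cycle element called CHR (41.7%, against 17.9% of all promoters).

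Genes of other tissue components were mostly lower or about equal in the rich arrays. Of 16 fibroblast genes, 3 were counted lower and none higher, with a median difference of -0.74. Of all features 0.397% were counted lower, and 2.96% after quantile normalization, where 3 list members were. Mmp2, a matrix-degrading enzyme, stood at 1.94, 1.03, 2.75 and 2.53 on the rich arrays, against 2.37 to 4.37 on the poor ones (-1.29 ± 0.48). Mfap5, a protein of elastic microfibrils, differed by -1.48 ± 0.63. Both were counted on all 4 sets of values, and Fbn1, which encodes fibrillin, on 3 of them (-1.10 ± 0.51). Collagen genes such as Col1a1 (-0.73 ± 0.44) were not counted. Within reprogrammed mammary the list's median difference was -0.19 and no member was counted lower there.

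Of 21 pan-epithelial genes, 7 were counted lower and none higher. Of all features 0.397% were counted lower, and 2.96% after quantile normalization, where 3 list members were. Grhl2 and Esrp1 were the 2 members with a positive difference, of 0.57 and 0.42, and other probes of Grhl2 gave -0.35 and -1.04. The list's median difference was -0.96. This value came mainly from reprogrammed lung, where the median was -2.42, against -0.12 in adult mammary and -0.20 in reprogrammed mammary. Cldn4, a claudin of tight junctions, stood at 2.92, 0.00, 3.20 and 2.99 on the rich arrays, against 2.17 to 4.36 on the poor ones (-1.28 ± 0.49), and was the 1 member counted on all 4 sets of values. Cldn7, Elf3 and St14 differed by -1.34, -1.31 and -1.15, and their differences within reprogrammed lung were -3.59, -3.40 and -3.14. Without adult mammary 4 and reprogrammed lung 1, no pan-epithelial gene was counted. The median of milk and alveolar genes was -2.26 in reprogrammed lung and 0.29 and 0.18 in the other groups, and none was counted over the 3 groups. Within reprogrammed mammary alone 2 of 16 were counted higher and 2 lower, against 3.91% and 1.13% of all features. Hormone-sensing luminal, lung epithelial, ribosomal protein, oxidative phosphorylation, housekeeping, interferon response and immediate-early lists had no member counted over the 3 groups, with medians between -0.40 and 0.21. Within reprogrammed mammary alone, 5 of 16 interferon response and 2 of 11 hormone-sensing genes were counted higher, against 3.91% of all features. There 2 of 12 lung epithelial genes were counted lower, against 1.13%. The medians of the interferon response (-0.04), oxidative phosphorylation (0.08) and housekeeping (0.03) lists had the other sign after quantile normalization, and that of ribosomal protein genes (-0.02) after normexp. Basal and myoepithelial genes had a median of -0.40 with 1 member of 16 counted lower, against 0.397% of all features. It was the basal keratin Krt14 (-1.03 ± 0.40), which was counted on 2 of the 4 sets. Mast cell and erythroid genes, at -0.29 and 0.38, had none counted.

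Adipocyte, skeletal muscle and kidney tubule lists had median differences of 0.04, 0.69 and 0.57, with 1, 3 and 2 members counted higher and none on all 4 sets of values. They had 10, 8 and 10 members tested. Of all features 6.74% were counted higher, and 21.7% of those not above background on all 9 arrays. The adipocyte median had the other sign after quantile normalization (-0.05) and in the authors' values (-0.11). Within reprogrammed mammary alone, 5 of 10 adipocyte genes were counted higher, against 3.91% of all features. The adipocyte list stood there at -0.21 and -0.87 on the rich arrays against -1.70 on the poor one. In adult mammary it was lower on the rich array (-1.96) than on the poor ones (-1.18 and -1.61). Muscle and kidney lists, of tissues that the labels do not name, lay at a median level under 0 on each array.

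Outside the lists, genes of lymphocytes again had large differences without overlap within groups. The rule for this set took the 15 named genes with the largest difference in each direction among those counted and on no list. Gpr174, a lysophosphatidylserine receptor of lymphocytes, was above background on all 4 rich arrays and no poor one. It was at least 11.3-fold higher with the 75th percentile scaling. Its log2 difference was 1.88 with normexp and 2.47 in the authors' values, both below that bound. P2ry10, a related receptor above background on 1 of 5 poor arrays, differed by 5.25 ± 1.02 (2.62 with normexp, 3.20 in the authors' values). Gimap3, a GTPase of lymphocytes, stood at 1.20 on adult mammary 4, -0.02 on reprogrammed lung 1, -2.97 on reprogrammed mammary 1 and 0.10 on reprogrammed mammary 2, against -7.17 to -3.28 on the poor arrays (5.24 ± 1.00, with 2.88 by normexp). Rhoh, a GTPase of blood cells, differed by 4.94 ± 0.72 (2.37 with normexp), and H2-Eb2, a class II gene not on the list, by 4.52 ± 0.67.

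The same set held receptors of lymphocyte activation and restraint. Pdcd1, which encodes the inhibitory receptor PD-1, stood at 1.13 on reprogrammed mammary 2 and at -2.47, -0.67 and -3.90 on the other rich arrays, against -6.88 to -4.68 on the poor ones (4.17 ± 0.97, with 1.86 by normexp). Its ligand gene Pdcd1lg2 differed by 4.02 ± 0.57 (1.33 with normexp), and the inhibitory receptor Btla by 4.33 ± 0.89 (no value on adult mammary 2). Cd69, an early activation receptor, differed by 4.00 ± 0.74 (2.24 with normexp). Rhoh, Pdcd1 and Pdcd1lg2 were above background on 1 of 5 poor arrays, and Gimap3 and Cd69 on 2. Lef1, a partner of Tcf7 in T cells, was highest on adult mammary 4 (1.36, against -3.80 to -0.90 on the other rich arrays) and differed by 3.65 ± 0.78. Stap1, Arhgap30, Myo1g, Ptpn22 and Arhgap45 completed the set, at 3.58 to 3.95. Ptpn22, a phosphatase that restrains antigen receptors, was the 1 gene of these 15 not counted on all 4 sets of values.

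On the lower side the differences were smaller. Arg1, an arginase of alternatively activated macrophages and other cells, stood at -0.66, -2.59, -0.79 and -1.65 on the rich arrays, against -0.40 to 2.06 on the poor ones (-1.81 ± 0.70). Plet1, a surface protein of epithelial progenitors, stood at 4.78, 1.88, 5.28 and 5.01, against 4.96 to 5.99 (-1.59 ± 0.57). Cxadr, an adhesion receptor of epithelial junctions, differed by -1.48 ± 0.37, and its other probes gave -1.23 and -0.07. Pi16, Scara5, Fndc1 and Htra3, genes of fibroblasts and matrix, differed by -1.43, -1.30, -1.34 and -1.28. Aldh1a3, a retinal dehydrogenase of luminal cells, differed by -1.42 ± 0.36, and by -0.21 within reprogrammed mammary. Mbp, the myelin basic protein, differed by -1.58 ± 0.58, and its other probes gave -1.20 and -0.07. Of the 35 features lower on all 4 sets of values, 31 carry a symbol and 3 are on a list (Cldn4, Mfap5 and Mmp2), and none was counted lower within reprogrammed mammary alone, where lower means at least 2-fold.

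Within groups, the rich minus poor differences were compared feature by feature. Over all 24960 features, whose values share each array's scaling, Pearson's r between the differences was 0.309 for adult mammary with reprogrammed mammary, 0.389 for reprogrammed lung with reprogrammed mammary, and 0.654 for adult mammary with reprogrammed lung, the pair whose rich arrays have the narrow signal range. With the lymphoid lists left out, r was 0.263, 0.352 and 0.637. Of the 976 features higher within reprogrammed mammary, 53.9% were higher within adult mammary and 73.5% within reprogrammed lung, where 12.4% and 26.6% of all features were. Of the 3094 and 6632 features higher within adult mammary and reprogrammed lung, 17% and 10.8% were higher within reprogrammed mammary. These are shares over features that are not independent, and no test was made of them.

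**Figure D5:**
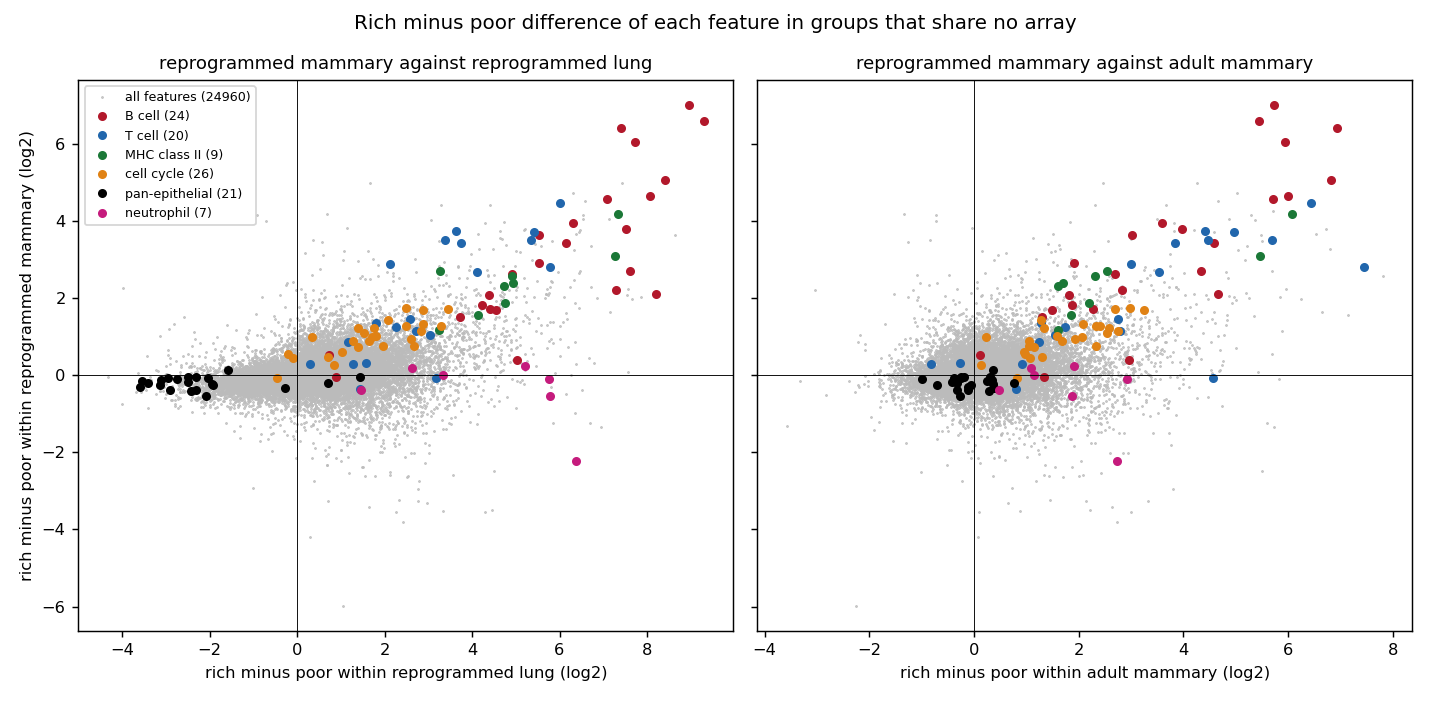
Rich minus poor difference (log2) of each feature within reprogrammed mammary (vertical axis) against that within reprogrammed lung (left) and within adult mammary (right), with members of 6 gene lists in colour over all 24960 features in grey. Most B cell, T cell and MHC class II genes lie high on both axes, while pan-epithelial genes are low within reprogrammed lung (median -2.42) and near 0 within reprogrammed mammary (-0.20).

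Slides gave pairs of a rich and a poor array hybridised side by side, which differ in group too. The B cell list's median difference was 2.11 on the slide of reprogrammed mammary 1 and adult mammary 1, 2.95 on that of adult mammary 4 and reprogrammed mammary 3, and 3.52 on that of reprogrammed mammary 2 and reprogrammed lung 4. On these 3 slides the T cell median was 0.40, 3.03 and 2.39, the MHC class II median 1.32, 2.36 and 3.62, and the cell cycle median 1.06, 2.11 and 2.51. The pan-epithelial median was -0.13, -0.15 and 0.12, and that of all features 0.06 to 0.09.

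Genes whose pattern over the 9 arrays was most like the B cell list's median level were ranked by Pearson's r after both were centred within each group. This is a description over 9 arrays whose values share each array's scaling. The 10 nearest genes outside the B cell list had r of 0.988 to 0.995. H2-DMb2, Gpr183 and Ccr6 were among them. The others were A530032D15Rik (difference 3.55 ± 0.56), Kynu, an enzyme of tryptophan breakdown (dim on all poor arrays, with a difference of 2.54 ± 0.33 that was 0.56 with normexp and 0.32 in the authors' values, and counted on 2 of the 4 sets), Ercc2, Unc13d, Naip1, Tonsl and Gabrr2. Ercc2, Unc13d and Naip1 differed by 1.39, 1.27 and 1.16 and were counted on 1, 2 and 1 of the 4 sets of values. In the authors' values their differences were 0.36, 0.95 and 0.08. Tonsl and Gabrr2 differed by 0.78 and 0.75 (0.50 and 0.09 in the authors' values) and were not counted.

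Group comparisons were tested, since group was not used to make the split. They were fitted in limma with and without the split as a term, over 24996 or 24997 features. Reprogrammed lung minus adult mammary gave 1 feature higher (0.004%) and 0 lower at a Benjamini-Hochberg adjusted p under 0.05 with the term. That feature, AK035950, stood at -0.29, -0.91 and -0.07 on the 3 reprogrammed lung arrays, against -4.12 to -3.52 on the adult mammary arrays, with a difference of 3.43 ± 0.27 (limma adjusted p = 0.0481 with the term, 0.0198 without). The comparison had 0 features after quantile normalization, in the authors' values, with no filter on dim probes, with slide or replicate number as a block, with array weights, and when any 1 of 7 of the 9 arrays was left out. It had 2 higher without reprogrammed lung 3 and 55 higher without reprogrammed lung 4. The rich minus poor difference of AK035950 was -0.03. Reprogrammed mammary minus adult mammary gave 0 features in either direction with the term and 1, again AK035950, without it (lowest limma adjusted p 0.146 and 0.0485). Reprogrammed lung minus reprogrammed mammary gave 0 with and without it (lowest limma adjusted p 0.0878 and 0.124). Features at an unadjusted limma p under 0.05 numbered 2933, 2153 and 3633 in these 3 comparisons with the term, and 2033, 1758 and 1625 without it. By chance alone about 1 in 20 features would fall under 0.05. The split was made from values of these same arrays, so p-values with the term may be miscalibrated. The larger counts with the term are therefore not read as group differences.

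B cell genes made the split, so their group differences are given as descriptions. The list's median difference for reprogrammed mammary minus adult mammary was -0.10 with the term and 1.06 without it, as 2 of 3 reprogrammed mammary arrays but 1 of 3 adult mammary arrays are rich. For reprogrammed lung minus adult mammary, each with 1 rich array, it was 1.16 both ways. For reprogrammed lung minus reprogrammed mammary it was 1.56 with the term and 0.17 without it.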

How the data were processed

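Gene expression was measured on 12 single-colour Agilent mouse arrays, and 9 were used here for the split. The deposited scanner files hold intensity values that are background-subtracted and detrended, with small values replaced, per the file headers (Feature Extraction 10.5.1.1; the submitters' processing notes name 10.1). The authors' deposited table holds log2 values and the sources used here do not name its scaling method. It ranks probes as the raw median signal does, and it served as an alternative.

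Outlier spots and control spots were left out, spots of a probe were averaged, and log2 of the processed signal was taken minus the array's 75th percentile. No spot was saturated. Accessions were matched to RefSeq symbols for 24844 of 41174 probes; the other 16330 stayed unnamed. The probe with the highest mean stood for a gene. Of 32678 features, 24997 were above background on at least 4 of 9 arrays, and 24960 had values on both sides in every group. The number of arrays limits the precision.

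Differences came from limma 3.58.1 in R 4.3.3, with group and split as terms (5 residual and 2.79 prior degrees of freedom). Only group comparisons were tested, with Benjamini-Hochberg adjustment over all features. Alternatives covered background correction, scaling, filters, probe choice, slides, replicate number, array weights and omitted arrays. For normexp (offset 50), the median signal took the place of the mean signal, which was not used here.

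The rich and poor arrays and the 34 gene lists (540 genes, 481 tested) were chosen with earlier results of these data known. Genes were named by this rule: the defining B and T cell genes; up to 4 members of each list with the largest differences; the 15 counted genes outside the lists with the largest difference in each direction; and the 10 genes most like the B cell list. Other genes were named after their values were seen. Some genes that the rule names are not reported here.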

Additional observations from a re-analysis of the deposited data

Results flagged for a closer look

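Some single arrays lay far from the others on their side of the split. Of 74 sets of values examined, 4 had such an array, which is about the share that chance gives (1 in 20). The sets share arrays, and B cell gene levels made the split. Among the rich arrays these were reprogrammed mammary 1 in the level of T cell genes (-2.02, the nearest other at -0.11), and reprogrammed lung 1 in the level of pan-epithelial genes (-0.064, the nearest at 2.24) and in the 75th percentile of signal (306, the nearest at 422). Among the poor arrays it was adult mammary 2 in the level of B cell genes (-4.15, the nearest at -3.60).

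In 8 of 34 gene lists the rich arrays of one group lay above all its poor arrays while those of another group lay below. With 3 arrays per group such a parting arises easily by chance, and how often was not computed. These lists are therefore not read as differing between groups. The differences between groups were not tested. For neutrophil genes the rich minus poor list level was 2.51 in adult mammary and 4.16 in reprogrammed lung, against -0.64 in reprogrammed mammary. For kidney tubule genes it was 1.18 and 1.52, against -0.10. Adipocyte genes stood at -0.57 in adult mammary, 0.32 in reprogrammed lung and 1.16 in reprogrammed mammary, and interferon response genes at -0.31, 0.28 and 0.67. Hormone-sensing luminal genes stood at 0.47, -1.22 and -0.22 in the same order. Lymphatic endothelial genes stood at -0.80 in adult mammary and 0.22 in reprogrammed mammary. Blood endothelial genes stood at -1.12 in adult mammary and 0.44 in reprogrammed lung, and housekeeping genes at 0.22 and -0.71.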

How the results depend on the processing

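The count of higher features, 1682, was 573 with normexp, 867 after quantile normalization, 567 in the authors' values, 510 on all 4 sets (an alternative chosen after seeing the data), 4836 with no filter on dim probes, 902 with features above background on all 9 arrays, 1028 with slide as a fixed block, 858 with array weights, 976 without adult mammary 4 and reprogrammed lung 1, and 2815 and 438 at 1.5-fold and 4-fold. Leaving out 1 array gave 1098 (reprogrammed lung 1) to 4106 (reprogrammed mammary 3), with 2547 without reprogrammed mammary 1. Adult mammary 4, reprogrammed lung 1 and reprogrammed mammary 3 are each the only rich or only poor array of their group. Without such an array its group drops out of the no-overlap rule. Those counts, higher and lower, therefore rest on fewer groups than the 1682 and 99 and are not like for like. The count of lower features, 99, was in turn 53 with normexp, 740 after quantile normalization, 35 on all 4 sets, 288 with the replicate block, 7 with array weights, 281 without the 2 arrays, and 616 and 0 at 1.5-fold and 4-fold. Leaving out 1 array gave 45 (reprogrammed lung 1) to 446 (reprogrammed mammary 3); it was 329, 169, 156, 172 and 48 without adult mammary 4, adult mammary 2, reprogrammed lung 3, reprogrammed mammary 1 and reprogrammed lung 4. The cell cycle median, 1.53, was 1.02 with normexp, 1.04 in the authors' values, 1.95 with the replicate block, 1.03 with array weights and 0.98 without the 2 arrays. The T cell median, 2.41, was 3.34 with no filter, 1.46 with array weights and 1.40 without the 2 arrays. The neutrophil median was -0.10 without the 2 arrays, Ckm -0.086 after quantile normalization and -0.015 in the authors' values, and St14 0.081 with slide as a fixed block. The single feature of reprogrammed lung minus adult mammary became 0 after quantile normalization, in the authors' values, with no filter, with slide as a random or fixed block, with the replicate block, with array weights and without the 2 arrays, 2 with features above background on all 9 arrays, and 8 higher and 2 lower with the B cell level as a numeric term. Leaving out 1 array gave 0 to 55 higher there (55 higher and 3 lower without reprogrammed lung 4, 2 higher and 1 lower without reprogrammed lung 3). Reprogrammed lung minus reprogrammed mammary gave 1 higher after quantile normalization, and 0 to 540 with 1 array left out (540 higher and 7 lower without reprogrammed mammary 3, 3 without reprogrammed lung 4, 1 without adult mammary 4). Reprogrammed mammary minus adult mammary gave 1 with array weights and 1 without the split term. Apart from the groups that drop out of the no-overlap rule, the cause of these shifts was not tested. Between arrays of the same replicate number, correlations of deviations from the group mean ran from -0.53 to 0.31. The split is part of these deviations, so they cannot show whether replicate numbers pair the arrays. The replicate block left 2 residual degrees of freedom. Of the other recomputed values, 342 of genes and 29 of list medians moved by more than 1 SD over the 3 groups, and 6154 and 650 did not. Depth of signal limits genes dim on all poor arrays to bounds.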
